A study of Mus musculus with 4 samples.

Results

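The genes described here encode the TGF-β ligands (Tgfb1, Tgfb2 and Tgfb3), the activin β subunits (Inhba and Inhbb), the activin antagonist follistatin (Fst) and the latent TGF-β binding proteins (Ltbp1, Ltbp2, Ltbp3 and Ltbp4). They were taken by symbol from a table of 22063 genes, and all 10 were found. RNA had been sequenced from ID8, a mouse ovarian cancer cell line, after transduction with a control shRNA (shCtrl, 2 libraries, genotype given as WT) or with an shRNA against USP9X (shUSP9X, 2 libraries, genotype given as USP9X knockdown). USP9X is a deubiquitinase, an enzyme that removes ubiquitin from other proteins. The study's shRNAs were cloned into the lentiviral vector pLKO.1-puro, and which shRNA the knockdown cells received, whether TGF-β1 was added are not given in the sources used here. The methods describe a standard incubator for cell culture and a low-oxygen setting for hypoxia experiments, and do not say by name which held the sequenced cells. Nothing says that the libraries of a group came from separate cultures, so the p-values measure only the spread between these libraries, which may be technical. The libraries held 17232006 and 15611363 estimated counts in shCtrl and 19978889 and 17021261 in shUSP9X.

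TGF-β is secreted as an inactive complex in which the mature dimer stays wrapped in its own propeptide, and a latent TGF-β binding protein tethers that complex to the extracellular matrix until integrins, proteases or matrix proteins release it. Activins are dimers of the inhibin β subunits, are secreted active, and are held in check by follistatin, which binds them outside the cell. Both kinds of ligand signal through paired serine/threonine kinase receptors to Smad2 and Smad3, and the ovary, its surface epithelium and the cancers that arise there are among the tissues in which they are well known.

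The targeted gene was examined first. Usp9x (chromosome X, 13071498 to 13173328, plus strand, GRCm38) was read at 298 and 282 CPM (counts scaled to a common library size, with TMM factors) in shCtrl and at 19.7 and 20.5 CPM in shUSP9X. The log2 fold change of -3.85 ± 0.06 (SE, edgeR adjusted p = 4.66e-26) goes with the labels. With each library's trend on GC content and length removed it was -2.09. The ID8 label was set against 12 markers of ovarian surface epithelium and mesothelium, of which 10 had more than 3 counts in every library, among them Krt8, Krt18, Krt19, Wt1 and Msln. Their summed level was 4432 and 4511 CPM in shCtrl and 5431 and 5325 CPM in shUSP9X, with Vim the most abundant at 1906 to 2565 CPM. Single markers moved both ways, with 5 of 11 tested higher and 4 lower (edgeR adjusted p under 0.05). Over all genes tested, 33.8% were higher and 33.6% lower by this rule. Krt8 (log2 fold change 0.92) and Krt18 (0.64) rose, while Wt1 (-0.52), Msln (-0.47) and Cdh2 (-0.50) fell. Krt7 was listed at 0 counts in both shCtrl libraries and at 2 and 3 counts in shUSP9X, and Muc16 at 33 and 43 counts against 1 and 0. Muc16 is counted among the 4 lower, but it passed the count filter only through shCtrl, so its call is not used.

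Levels can be compared between genes on the FPKM scale, which the authors corrected for transcript length. In shCtrl cells Ltbp3 stood highest of the 10 genes, with a mean of 79.2 FPKM, followed by Tgfb3 at 32.1, Ltbp1 at 27.2, Tgfb1 at 15.0 and Inhbb at 13.6 FPKM. Fst and Ltbp4, at 10.2 and 10.1 FPKM, overlapped between libraries and could not be ordered, and Tgfb2 at 8.35 and Inhba at 7.15 FPKM came below them. In shUSP9X cells Ltbp3 was again highest at 75.7 FPKM, but Ltbp1 at 43.3 now stood above Tgfb3 at 24.6 and Tgfb1 at 20.1 FPKM. Inhbb at 4.87 and Fst at 4.75 FPKM overlapped there and both lay below Ltbp4 at 8.83 and Tgfb2 at 5.41 FPKM, while Inhba was lower still at 2.35 FPKM. Ltbp2 was close to absent in both groups. The ID8 cells thus carried transcripts of each TGF-β ligand, both activin subunits, follistatin and 3 of the 4 binding proteins.

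Promoter sequences are shown for Inhba, Inhbb and Ltbp1, whose levels differed most of the members with an entry, and for Tgfb1 and Tgfb2, which moved in opposite directions. They are the 250 bases before the RefSeq start site on GRCm38.p6, written 5′ to 3′ on the strand of the gene, and 8 of the 10 members had an entry, with none listed for Tgfb3 and Fst. Capitals mark matches, on either strand, to any of 6 motifs. These were CAGACA, the Smad binding element, found in 17.1% of the 32851 promoters of the same length, its palindrome GTCTAGAC (0.167%), the AP-1 element TGANTCA (6.75%), the hypoxia response core ACGTG (16.6%), the interferon response element (2.98%) and the TATA box letters TATAAA (12.4%). The windows lie at chr13:16011601-16011850 (plus strand) for Inhba, chr1:119422249-119422498 (minus strand) for Inhbb, chr7:25686752-25687001 (plus strand) for Tgfb1, chr1:186705990-186706239 (minus strand) for Tgfb2 and chr17:75005279-75005528 (plus strand) for the first listed start site of Ltbp1.
Inhba: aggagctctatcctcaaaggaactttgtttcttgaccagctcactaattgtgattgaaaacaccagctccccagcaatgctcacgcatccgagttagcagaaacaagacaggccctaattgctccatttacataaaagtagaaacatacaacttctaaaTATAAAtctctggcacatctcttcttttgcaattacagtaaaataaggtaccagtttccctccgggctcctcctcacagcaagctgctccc
Inhbb: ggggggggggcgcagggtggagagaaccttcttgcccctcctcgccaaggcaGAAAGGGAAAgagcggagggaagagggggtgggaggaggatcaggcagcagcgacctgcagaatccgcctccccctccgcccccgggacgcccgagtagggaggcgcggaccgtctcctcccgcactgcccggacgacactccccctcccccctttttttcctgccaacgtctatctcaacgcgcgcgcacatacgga
Tgfb1: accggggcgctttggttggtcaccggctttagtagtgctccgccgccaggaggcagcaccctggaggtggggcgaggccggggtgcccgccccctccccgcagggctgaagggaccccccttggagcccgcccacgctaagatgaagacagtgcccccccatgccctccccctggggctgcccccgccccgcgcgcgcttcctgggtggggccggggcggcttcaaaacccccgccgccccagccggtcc
Tgfb2: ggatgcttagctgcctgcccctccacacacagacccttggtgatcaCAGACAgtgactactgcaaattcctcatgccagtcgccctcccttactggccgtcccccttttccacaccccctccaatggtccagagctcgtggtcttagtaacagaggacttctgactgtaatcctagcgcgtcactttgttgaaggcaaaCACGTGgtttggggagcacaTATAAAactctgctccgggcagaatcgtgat
Ltbp1: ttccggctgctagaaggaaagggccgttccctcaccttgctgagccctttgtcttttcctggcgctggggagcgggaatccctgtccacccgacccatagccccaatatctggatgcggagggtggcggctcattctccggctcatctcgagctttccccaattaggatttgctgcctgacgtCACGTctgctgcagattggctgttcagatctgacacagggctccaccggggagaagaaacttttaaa
The Inhba window holds TATAAA beginning 91 bases before the start, and the Inhbb window an interferon response element beginning 198 bases before it. In the Tgfb2 window CAGACA begins 204 bases and TATAAA 31 bases before the start, and the letters of ACGTG lie on both strands, overlapping, at 51 and 50 bases. The Ltbp1 window holds ACGTG 67 bases before the start on the other strand, and the second listed start site of Ltbp1 holds CAGACA at 149 and 98 bases, both on the other strand. No match to these letters was found in the windows of Tgfb1, Ltbp2, Ltbp3 or Ltbp4. The windows differ in base composition, from 43.2% G and C in Inhba and 53.6% in Tgfb2 to 68% in Inhbb and 75.2% in Tgfb1, against a median of 52.4% over all promoters. A match describes the letters only and does not show that a factor binds there.

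Among the TGF-β ligands, Tgfb1 was higher and Tgfb2 and Tgfb3 were lower in shUSP9X cells. Tgfb1 (chromosome 7, 25687002 to 25705077, plus strand, 7 exons), the most widely studied isoform, was read at 31.4 and 33.2 CPM in shCtrl and at 43.3 and 44.4 CPM in shUSP9X. Both knockdown libraries lay above both controls, and Tgfb1 rose by 0.44 ± 0.08 on the log2 scale (SE, edgeR adjusted p = 2e-05). Tgfb2 (chromosome 1, 186622792 to 186705989, minus strand, 7 exons), which is made by many epithelial and mesothelial cells, was read at 40.0 and 37.5 CPM in shCtrl and 24.4 and 24.6 CPM in shUSP9X. Its groups did not overlap either, and it fell by 0.66 ± 0.09 on the log2 scale (SE, edgeR adjusted p = 2.1e-07). With each library's trend on GC content and length removed, the log2 fold change of Tgfb2 was -0.42 (the highest adjusted p in any of 16 alternatives was 0.00741). Tgfb3 (chromosome 12, 86056745 to 86079041, minus strand, 7 exons), the ligand with the highest FPKM here, was read at 107.7 and 107.4 CPM in shCtrl and 84.8 and 83.3 CPM in shUSP9X. The knockdown libraries were again both below the controls, and Tgfb3 fell by 0.35 ± 0.05 on the log2 scale (SE, edgeR adjusted p = 1.03e-06). Exons of Tgfb2 overlap 124 bases of Gm29491 and those of Tgfb3 overlap 163 bases of Gm37804 and 257 of Gm48008, all on the opposite strand, and the library kit is not stated to keep strand.

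The shares of the ligands shifted toward Tgfb1, and their sum was slightly lower. Tgfb1 made up 26.4 and 27.7% of the summed TGF-β ligand FPKM in the shCtrl libraries and 39.4 and 40.7% in the shUSP9X libraries. The share of Tgfb3 was 58.2 and 57.6% in shCtrl and 49.6 and 48.6% in shUSP9X, and that of Tgfb2 was 15.4 and 14.8% against 10.9 and 10.7%. Tgfb3 thus remained the most abundant ligand transcript in every library, with Tgfb1 closer to it in the knockdown. The summed ligand FPKM was 55.0 and 55.9 in shCtrl and 49.95 and 50.16 in shUSP9X. No test was run on these shares beyond those of the single genes. An exact permutation of 2 libraries against 2 cannot give a two-sided p below 0.333.

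Both activin subunits were lower in shUSP9X cells, and Inhbb and Inhba had the largest falls among the members before, but not after, the trends on GC content and length were removed, when Fst lay below Inhba. Inhba (chromosome 13, 16011851 to 16031621, plus strand, 5 exons), which encodes the βA subunit of activin A, was read at 26.6 and 25.9 CPM in shCtrl and at 6.78 and 7.30 CPM in shUSP9X. The gap between the groups was far wider than that between libraries of one group, and Inhba fell by 1.90 ± 0.12 on the log2 scale (SE, edgeR adjusted p = 2.5e-13). Its transcript is long (6390 bases) and poor in G and C (41.4%), and with the trends on GC content and length removed its log2 fold change was -0.89 (the highest adjusted p in any of 16 alternatives was 0.00171). Inhbb (chromosome 1, 119415465 to 119422248, minus strand, 2 exons), which encodes the βB subunit, was read at 55.9 and 58.6 CPM in shCtrl and 20.3 and 21.5 CPM in shUSP9X. The groups were again well apart, with a fall of 1.45 ± 0.08 on the log2 scale (SE, edgeR adjusted p = 1.3e-14). Its transcript has 60.9% G and C, and its log2 fold change with the trends removed was -1.44. Inha, the α subunit that pairs with either β subunit to give inhibin, had 4 and 4 counts in the shCtrl libraries and 8 and 2 in the shUSP9X libraries, too few to be tested.

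Follistatin fell with them. Fst (chromosome 13, 114452290 to 114458951, minus strand, 6 exons) was read at 21.9 and 21.9 CPM in shCtrl and at 9.92 and 11.7 CPM in shUSP9X, and the groups did not overlap. The fall was 1.02 ± 0.12 on the log2 scale (SE, edgeR adjusted p = 2.9e-08), and the log2 fold change was -0.98 with the trends on GC content and length removed, where that of Inhba was -0.89. Its exons overlap 115 bases of the antisense gene Gm47040. On the FPKM scale the summed activin subunits stood at 19.9 and 21.6 in shCtrl and 6.944 and 7.504 in shUSP9X, so that the ratio of subunit to Fst FPKM was 1.95 and 2.13 in shCtrl and 1.52 in both shUSP9X libraries. The ratio was lower in both knockdown libraries, but it rests on FPKM with no correction for GC content and has no test of its own. The ratio of Inhbb to Inhba FPKM was 1.99 and 1.83 in shCtrl and 2.14 and 2.01 in shUSP9X, so Inhbb remained the more abundant subunit transcript. Whether the balance of the subunits shifted depended on the measure. In the edgeR fit Inhba fell further than Inhbb (-1.90 against -1.45). With the trends on GC content and length removed, Inhbb fell further than Inhba (-1.44 against -0.89).

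**Figure D1:**
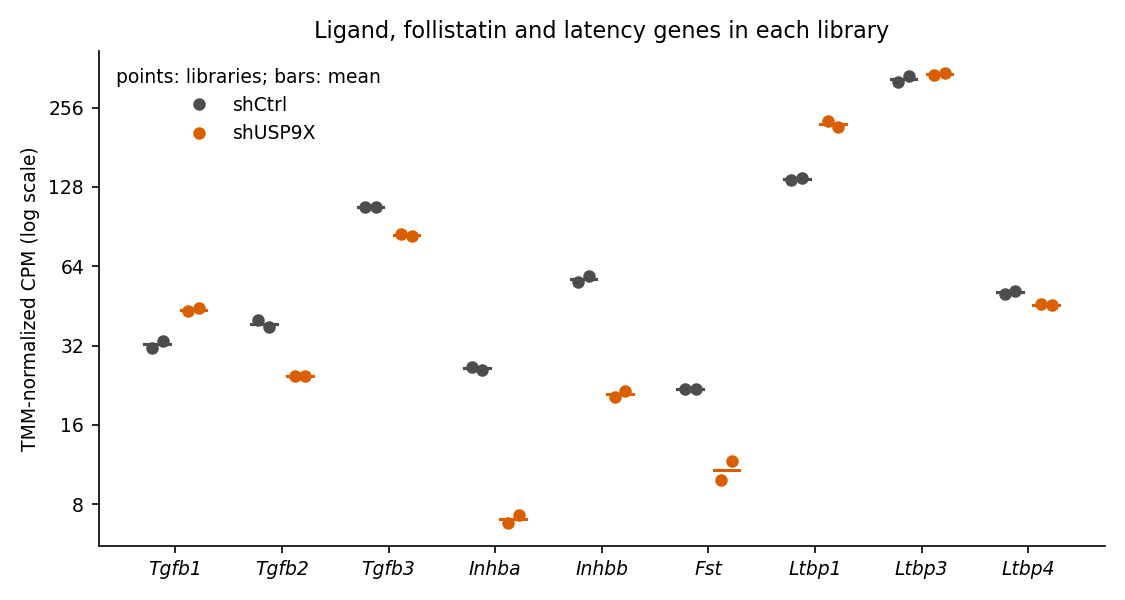
Normalized counts (CPM, log2 axis) of the members in each library, grey for shCtrl and orange for shUSP9X, with a bar at the mean of each group. Inhba lies near 26 CPM in shCtrl and near 7 CPM in shUSP9X, while Ltbp3 lies between 320 and 346 CPM in all 4 libraries.

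Of the latent TGF-β binding proteins, Ltbp1 was higher, while the others gave small differences or too few counts. Ltbp1 (chromosome 17, 75005568 to 75392512, plus strand, 34 exons), which binds the latent forms of the TGF-β isoforms and fixes them to fibronectin and fibrillin in the matrix, was read at 136 and 138 CPM in shCtrl and 228 and 217 CPM in shUSP9X. Both knockdown libraries were far above both controls, and Ltbp1 rose by 0.70 ± 0.04 on the log2 scale (SE, edgeR adjusted p = 2.5e-13), the largest rise among the members. Ltbp3 (chromosome 19, 5740904 to 5758532, plus strand, 28 exons), which also binds latent TGF-β, was read at 320 and 339 CPM in shCtrl and 341 and 346 CPM in shUSP9X. The gap between the shCtrl libraries was larger than that between the groups at their nearest, and the log2 fold change of 0.06 ± 0.04 (SE) did not pass the threshold (edgeR adjusted p = 0.175, 95% confidence interval -0.02 to 0.14). Its direction was reversed on the log2(FPKM + 1) scale, at -0.064, and with the trends on GC content and length removed it was 0.12 and passed the threshold. Ltbp4 (chromosome 7, 27305136 to 27337692, minus strand, 33 exons), which binds latent Tgfb1 and takes part in elastic fibre assembly, was read at 50.2 and 51.7 CPM in shCtrl and 45.9 and 45.6 CPM in shUSP9X. The log2 fold change of -0.16 ± 0.07 (SE) lay at the edge of the threshold (edgeR adjusted p = 0.0487, and between 0.021 and 0.280 in the alternatives), and the call was lost when a replicate block was added and when any library was left out. Ltbp2 (chromosome 12, 84783212 to 84876532, minus strand, 36 exons), which does not bind latent TGF-β, was given 0 and 4 counts in shCtrl, and 4 and 2 counts in shUSP9X, near the 3 counts that a count of 0 allows, and was not tested. Its exons share 764 bases with the antisense gene D030025P21Rik.

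The rise of Ltbp1 changed the make-up of the binding proteins. Its share of the summed Ltbp FPKM was 22.7 and 24.0% in shCtrl and 34.3 and 33.4% in shUSP9X, while that of Ltbp3 was 69.0 and 67.0% against 58.7 and 59.7%. Ltbp3 remained the most abundant binding protein transcript in every library. The summed Ltbp FPKM stood at 118.6 and 114.4 in shCtrl and 128.9 and 126.9 in shUSP9X. Set against the summed ligands, there were 2.16 and 2.05 FPKM of Ltbp per FPKM of TGF-β ligand in shCtrl and 2.58 and 2.53 in shUSP9X. The ratio of Ltbp1 to Tgfb1, both of which rose, was 1.85 and 1.78 in shCtrl and 2.24 and 2.07 in shUSP9X.

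**Figure D2:**
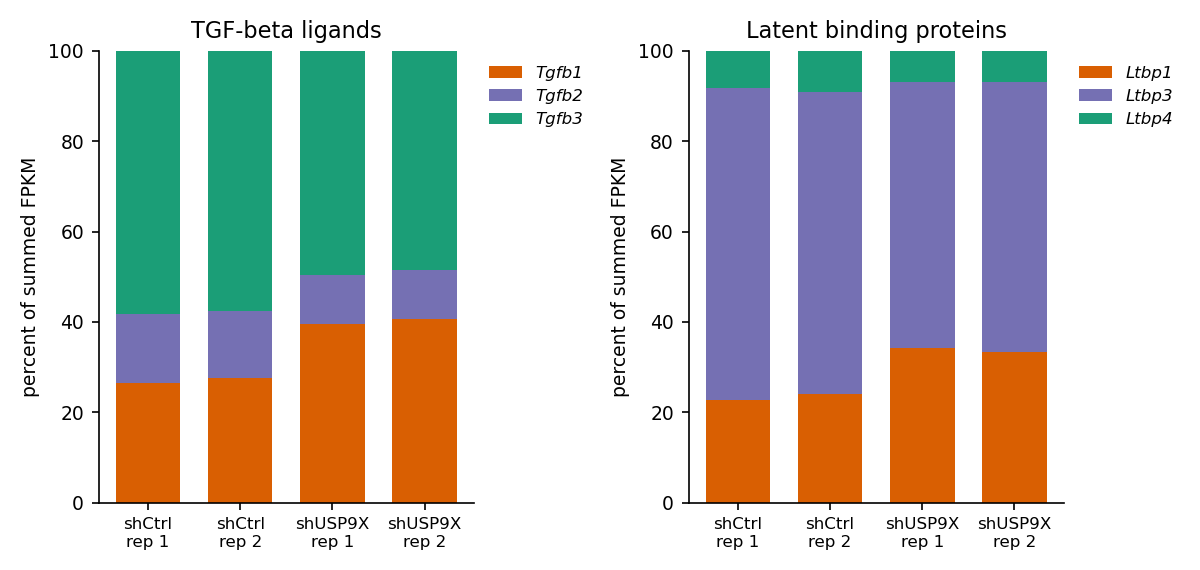
Share of the summed FPKM (percent, vertical axis) of the TGF-β ligands and of the latent binding proteins in each library (horizontal axis), with a stacked segment per gene. Tgfb1 takes 26.4 and 27.7% of the ligand FPKM in shCtrl and 39.4 and 40.7% in shUSP9X, Ltbp1 rises from 22.7 and 24.0% to 34.3 and 33.4%, and Ltbp2, near 0, is not drawn.

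Counted over the members, 6 were lower and 2 were higher by edgeR (adjusted p under 0.05), with Ltbp3 not past the threshold and Ltbp2 not tested. Of the 11448 genes tested, 33.6% were lower and 33.8% higher by the same rule, so a call is common here, and the 9 members tested had at least 123 counts in every library. With the trends on GC content and length removed, 2925 genes were lower and 4426 higher, against 3843 and 3864 without that step. By the cutoff used in the study, an unadjusted p under 0.05 with a fold above 1.5, the lower members were Inhba, Inhbb, Fst and Tgfb2 and the only higher member was Ltbp1, while 18.7% of all genes tested were lower and 10.8% higher. The median log2 fold change was -0.35 over the members tested and -0.0005 over all genes tested. In bulk RNA, fewer cells of a type and less RNA per cell cannot be told apart.

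**Figure D3:**
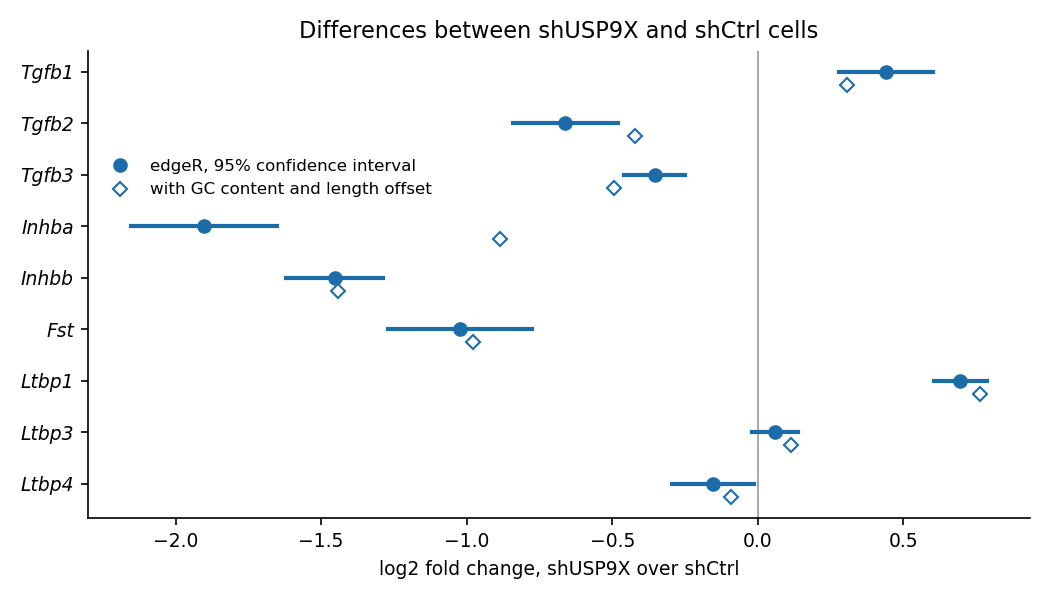
Log2 fold change, shUSP9X over shCtrl, of the members tested (points, with bars for the 95% confidence interval), and the same after the trends on GC content and length were removed (open diamonds). Inhba moves from -1.90 to -0.89 and Inhbb stays near -1.44, while Ltbp1 and Tgfb1 lie above 0 in both fits.

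The genes nearest in pattern were sought for the members at both ends, by the distance between log2 CPM centred on each gene's mean over the 4 libraries. For Ltbp1 they were Apex1, a DNA repair endonuclease, Bub3, a spindle checkpoint protein, and B4galt3, a galactosyltransferase, at distances of 0.0132, 0.0208 and 0.0244. For Inhba they were Usp53, Cip2a and Mastl, at 0.0444, 0.0467 and 0.0614. Within a distance of 0.2 lay 826 genes for Ltbp1 and 75 for Inhba, so with 4 libraries the nearest genes are a description of similar levels only.

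Genes that anchor or release latent TGF-β moved in both directions. Of 22 listed, 15 were tested, 10 were lower and 3 higher, with a median log2 fold change of -0.35. With the trends on GC content and length removed, 7 were lower and 5 higher. Tgm2, a transglutaminase that cross-links Ltbp1 into the matrix, rose by a log2 fold change of 0.66 ± 0.06, and Furin, the protease that cuts the ligand from its propeptide, by 0.57 ± 0.05 (SE, edgeR adjusted p = 8.6e-11 and 4.9e-11). Fn1, fibronectin, to which Ltbp1 is bound in the matrix, was read at 1547 and 1583 CPM in shCtrl and at 521 and 549 CPM in shUSP9X, and fell by 1.55 ± 0.03 on the log2 scale (SE, edgeR adjusted p = 2.8e-23). Itgb8, which with the αv integrin subunit frees latent TGF-β, fell by 2.04 ± 0.19 (SE, edgeR adjusted p = 3.7e-10), and stood at -0.64 once the trends on GC content and length were removed. The direction of Itgav, the αv subunit, itself depended on that step, with a log2 fold change of -0.26 without it and 0.55 with it.

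The antagonists and co-receptors other than Fst numbered 20, of which 9 were tested, 5 lower and 2 higher, with a median log2 fold change of -0.08. For these and for the other ligands below, the shares over all genes tested were 33.6% lower and 33.8% higher. Fstl1, a secreted glycoprotein related to follistatin, fell by 0.70 on the log2 scale (edgeR adjusted p = 1.1e-12). Htra1, a secreted serine protease, rose by 0.45 on the log2 scale (edgeR adjusted p = 7.8e-12) and Htra3, of the same family, by 0.40 (edgeR adjusted p = 7.9e-04). With the trends on GC content and length removed, Htra1 stood at 0.21. Wfikkn1, an inhibitor of related ligands, had 12 and 14 counts in shCtrl and 6 and 1 counts in shUSP9X. It is counted among the 5 lower, but it passed the count filter only through shCtrl, so its call is not used. Among 25 other ligands of the superfamily 5 were tested, and 4 were lower and 0 higher, with a median of -0.28. Gdf6 fell by 1.34 and Bmp2 by 0.59 on the log2 scale (edgeR adjusted p = 5.0e-09 and 0.0138), so Tgfb1 alone was called higher among the superfamily ligands tested here.

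Downstream of the ligands, 11 of 12 receptors and Smads were tested, with 6 lower, 1 higher and a median log2 fold change of -0.19. Over all genes tested, 33.6% were lower and 33.8% higher. The receptor or Smad gene that was higher was Smad3, which carries the signal of both ligand classes, at 0.27 (edgeR adjusted p = 1.1e-05). Tgfbr1, the type I receptor for TGF-β, fell by 0.88 (edgeR adjusted p = 3.5e-14) and Acvr2a, a type II receptor for activin, by 1.22 (edgeR adjusted p = 1.1e-10). With the trends on GC content and length removed, 3 of the receptors and Smads were lower and 3 higher, against 2925 and 4426 of all genes tested. Tgfbr1 then stood at 0.12, in the other direction, and Acvr2a at -0.08 without passing the threshold. Smad2, the partner of Smad3 in this signal, was named after its values were seen. It was at -0.07 and not called before that step. After that step Smad2 was at 0.71 and past the threshold, when Smad3 was at 0.23. The annotated Smad2 transcript used for that step has 8089 bases, and whether the cells express that transcript was not tested. Of 18 genes known to be induced by TGF-β, 14 were tested, 6 were lower and 4 higher, with a median of -0.25. The shares to set beside these counts are again 33.6% lower and 33.8% higher over all genes tested. Snai1, a transcriptional repressor, rose by 0.64 on the log2 scale, whereas Col1a1, a collagen chain, fell by 1.72 and Skil, a repressor of Smads, by 1.04 (edgeR adjusted p = 5.4e-04, 4.5e-16 and 2.9e-14). With the trends removed Snai1 stood at 0.40, and Skil stood at 0.06 and did not pass the threshold.

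**Figure D4:**
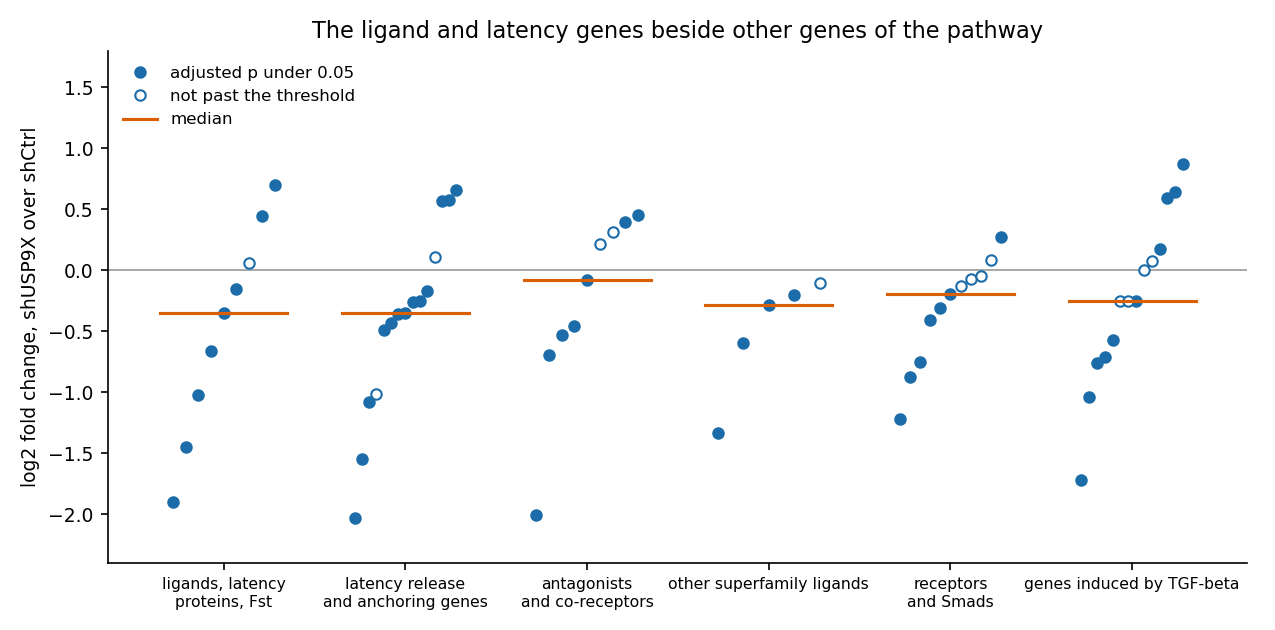
Log2 fold change, shUSP9X over shCtrl, of the members and of the genes in each pathway list, with filled points for genes at an adjusted p under 0.05, open points for the others and a bar at the median. The members' median is -0.35 and that of the receptors and Smads -0.19.

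Markers of other cell types were not at the same level in both groups. Of 10 leukocyte markers 6 were tested, and the summed level of the 10 was 4.33 and 4.62 CPM in shCtrl and 17.6 and 17.8 CPM in shUSP9X. Ptprc, Csf1r, Adgre1 and Itgam were at 0 counts in both shCtrl libraries, and Cd74 at 1 and 4 counts. In shUSP9X, Ptprc was at 29 and 18 counts and Itgam at 72 and 75. These 5 genes passed the count filter only through shUSP9X. The direction of their calls was thereby fixed, and the calls are not used. The most abundant marker, Cd68, had 74 and 68 counts in the shCtrl libraries against 118 and 85 in shUSP9X. It was not called (edgeR adjusted p = 0.125). C1qa and Cd3e were at 0 throughout. The 8 fibroblast markers summed to 254.7 and 262.3 CPM in shCtrl and 150.1 and 147.4 CPM in shUSP9X. Of these, 3 of 5 tested were lower, where 33.6% of all genes tested were lower. Dcn was the most abundant (168.3 and 166.6 CPM in shCtrl, 123.1 and 120.6 CPM in shUSP9X), and Pdgfrb, Lum and Thy1 were at 0. The 6 endothelial markers summed to 10.7 and 11.7 CPM against 6.88 and 7.18 CPM, with Cdh5, Kdr and Emcn at 0. Tek made up most of that sum, at 9.92 and 10.4 CPM in shCtrl and 5.51 and 6.23 CPM in shUSP9X. It was called lower (log2 fold change -0.80, edgeR adjusted p = 1.2e-04), and Pecam1, the other gene tested, was not called. Of 5 platelet markers none was tested, with Pf4 and Gp9 at 0. The part of these transcripts in the changes of the ligands and binding proteins was not tested.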

How the data were processed

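RNA was prepared with an oligo(dT) and NEBNext Ultra protocol, which is not stated to keep strand. Per the submitters' processing notes, fastp 0.18.0, Bowtie2 2.2.8, HISAT2, StringTie 1.3.1 and RSEM were used, and the study's methods name GRCm38. For each gene and library the authors deposited an estimated count, not normalized, and FPKM. About 6.4 to 6.69% of the estimated counts deposited were not whole, and they were rounded first. FPKM values were used as deposited by the authors for levels and shares.

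Genes were filtered with filterByExpr, scaled by TMM and tested with edgeR 4.0.16 (quasi-likelihood, group only), with Benjamini-Hochberg adjustment over 11448 genes and a threshold of 0.05. DESeq2 1.42.0, the tool of the study, and limma 3.58.1 on log2 FPKM were alternatives, in R 4.3.3. The common biological coefficient of variation was 0.0352. Across genes, which do not count as replicates, the fold change correlated with transcript GC content (Spearman's rho = 0.447). A joint loess surface over GC content and length (span 0.3) was therefore fitted per library and removed as an offset in an alternative. GC content and length came from a single annotated transcript per gene, with protein-coding and longer ones preferred, and it may not be the expressed one. The edgeR fits were run on simulated counts with and without a GC trend, and limma on simulated FPKM. The outcome is not reported here. The simulated data held no length trend, whereas the measured fold changes correlated with transcript length (Spearman's rho = -0.330). Coordinates and overlaps come from GENCODE M21 and promoters from RefSeq.

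The members and lists were chosen with earlier results of these data known. Named are all members, Usp9x, up to 4 genes a list (the 2 largest rises and falls past the threshold with groups that do not overlap) and the 3 genes nearest to the member at each end. Itgav, Smad2 and the marker genes were named after their values were seen. Some items covered by these rules are not reported here.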

Additional observations from a re-analysis of the deposited data

How the results depend on the processing

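Over 16 alternative fits, Tgfb1, Tgfb2, Tgfb3, Inhba, Inhbb, Fst and Ltbp1 stayed past the threshold in the same direction, with log2 fold changes of 0.31 to 0.48 for Tgfb1, -0.71 to -0.42 for Tgfb2, -1.95 to -0.88 for Inhba and 0.65 to 0.76 for Ltbp1. Usp9x ranged from -3.91 to -2.09. Ltbp4 lost its call in 14 of them, and Ltbp3 passed with upper-quartile factors, with the offset for GC content and length (block or not) and without shCtrl replicate 2, and was reversed in the 3 FPKM fits, at -0.0638 on log2(FPKM + 1) with or without the filter and -0.0645 on log2(FPKM + 0.1). Deviations of same-numbered libraries correlated at -0.0453, so no shared replicate effect was seen. That value cannot show whether same-numbered libraries were prepared together. With a replicate block 5 members were lower and 2 higher. The members' median was -0.32 with upper-quartile factors, -0.38 with library size only and -0.42 with the offset, with or without the block. At the study's cutoff, 1 member was higher, and 3 latency genes were lower and 1 higher, 2 antagonists lower and 0 higher, 2 other ligands lower, and 3 receptors and Smads lower and 0 higher. DESeq2 called 3 antagonists and 2 other ligands lower. FPKM fits called 2 other ligands lower and, with no filter, 3 receptors and Smads lower. The offset, with or without the block, called 5 latency genes higher and 3 receptors and Smads lower and 3 higher. Leaving out 1 library gave 2 to 3 other ligands and 3 to 5 antagonists lower. The causes were not tested. With 2 libraries a group, precision is limited for the genes with the fewest counts.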
